A study of Homo sapiens with 8 samples.

Results

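The genes described here encode the cytosolic ribosomal proteins, the protein part of the ribosome that translates nuclear messages. They were chosen by name: RPL or RPS with 1 or 2 digits and then nothing, A, X or L, together with RPLP0, RPLP1, RPLP2 and RPSA. Of 31402 rows in the deposited expression table, 84 matched. For a name listed more than once the most abundant row was kept, which left 81 genes, 49 of the large subunit and 32 of the small subunit. Pseudogenes, the S6 kinases and readthrough names were left out. The choice used no measured difference between libraries, but it was made with earlier results of these data known.

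Ribosomal proteins are made in near equal numbers and assembled with ribosomal RNA in the nucleolus into a small subunit, which decodes the message, and a large subunit, which joins amino acids. Their genes are scattered over the genome, lie among the most expressed genes of growing cells, and give short messages that mostly begin with a run of pyrimidines, the terminal oligopyrimidine or TOP element, through which mTOR signalling and LARP1 control their translation and stability. In blood cells, inherited loss of a copy of any of several of these genes causes Diamond-Blackfan anemia, a failure of red cell production.

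KCL-22 is an established human leukaemia line, taken from chronic myeloid leukaemia at the blast stage and driven by the BCR-ABL fusion kinase. Every library came from KCL-22 cells that carried ClonTracer barcodes, a pooled set of inert DNA tags that mark cell lineages. A vehicle population was kept in 0.1% DMSO for 7 days. An imatinib population (2.5 µM, 27 days) and a nilotinib population (0.3 µM, 27 days) had become resistant to catalytic inhibitors, which occupy the ATP site of ABL. A GNF-2 population (2.5 µM, 21 days) had become resistant to an allosteric inhibitor, which binds the myristate pocket. Clones 1, 2 and 4 were sorted as single cells from the GNF-2 population and expanded without ever meeting a catalytic inhibitor, and Clone 3 came in the same way from the imatinib population and never met an allosteric one. Clones 1 and 2 were resistant to GNF-2, Clone 3 to imatinib and nilotinib, and Clone 4 to all 3 drugs. The catalytic group therefore holds the imatinib and nilotinib populations and Clone 3, the GNF-2 group holds the GNF-2 population and Clones 1 and 2, and vehicle and Clone 4 are 1 library each. A clone descends from 1 cell, the vehicle treatment was shorter than the drug treatments, and whether libraries stand for separate cultures is not stated, so each p-value measures only the spread between these libraries.

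Expression was given as FPKM, fragments per kilobase of transcript scaled to the library's mapped fragments, which summed to between 497775 and 583520 per library. No read counts were used, and the depth of each library is not known here, so no counting error is given. In the genes described here Clone 1 and then Clone 3 stood above the other libraries, and Clone 4 was lowest, next to vehicle. Of the markers of myeloid blasts, ANPEP (CD13) was at 14.6 to 78.3 FPKM and PTPRC (CD45) at 16.5 to 88.0 FPKM in all 8 libraries. CEBPA was at 4.93 to 24.85 FPKM, CD38 at 0.29 to 18.1 FPKM and CD33 at only 0.16 to 3.35 FPKM. MPO was at 0.40 FPKM or less throughout, and SPI1 was listed at 0 in Clones 3 and 4. Of 7 markers of epithelial cells, fibroblasts, lymphocytes and endothelium, none passed 1 FPKM except COL1A2, at 4.61 FPKM in Clone 2.

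The ribosomal protein genes were among the most abundant transcripts of these cells. Of the 81, 54 had a mean of at least 1000 FPKM over the 8 libraries and 22 a mean between 100 and 1000 FPKM, and 62 stood among the 100 genes with the highest mean. RPS18, a protein of the small subunit's head, was the most abundant (chr6:33239851-33244281 on GRCh37, the build of the table). Its levels were 4139 FPKM in the vehicle population, 5149 in the imatinib, 5545 in the nilotinib and 5263 in the GNF-2 population, and 8235, 4511, 6936 and 4107 in Clones 1 to 4. Clone 1 was the highest and Clone 4 the lowest, with vehicle next to it. RPL8, RPS29, RPL30, RPL37A, RPLP1 and RPS16 were among those that followed, with means of 3966 to 2739 FPKM. At the other end, the tested genes with the lowest means were RPL39L (15.7 FPKM), RPS27L (29.6), RPL36A (109.8) and RPL27A (152.0). RPL39L and RPS27L are paralogs of RPL39 and RPS27.

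Genes entered a test when their mean was at least 1 FPKM, which 78 of the 81 and 11843 genes in all reached. The 3 that did not include 2 paralogs. RPL10L, a testis paralog of RPL10, was at 0 in every library. RPL3L, the muscle paralog of RPL3, did not exceed 0.06 FPKM. The 25 ribosomal protein pseudogene rows had means of at most 5.80 FPKM.

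Together the 81 genes held 19.8% of the FPKM sum in the vehicle population. Their share was 22.4% in the imatinib, 23.7% in the nilotinib and 23.0% in the GNF-2 population. Among the clones it was 30.4% in Clone 1, 21.6% in Clone 2, 27.5% in Clone 3 and 18.7% in Clone 4. The 4 clones thus spanned the whole range, on both sides of the 4 populations, while the 3 resistant populations lay close together. FPKM values are shares of a library, so these figures do not give the amount of ribosomal protein message per cell, and in such bulk libraries fewer cells of a type and less RNA per cell cannot be told apart.

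The shift was common to nearly all of the genes. Each gene's log2(FPKM + 1) was set against its own mean over the 8 libraries, and the median of this difference over the 78 genes was taken in each library. It was -0.26 in the vehicle population, -0.07, 0.03 and -0.03 in the imatinib, nilotinib and GNF-2 populations, and 0.55, -0.14, 0.32 and -0.40 in Clones 1 to 4. Over all other tested genes it stayed between -0.07 and 0.08. Clone 1 was the highest of the 8 libraries for 71 of 78 genes, against 9.38% of all genes tested, and Clone 3 for 5 (7.7% of all genes). Clone 4 was the lowest for 53 of 78 (19.1% of all genes) and the vehicle population for 18 (20.8%). Both subunits moved alike: the median difference was 0.54 for large-subunit and 0.57 for small-subunit genes in Clone 1, and -0.37 and -0.43 in Clone 4. The summed FPKM of the large subunit was 1.08 to 1.17 times that of the small subunit in every library.

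**Figure D1:**
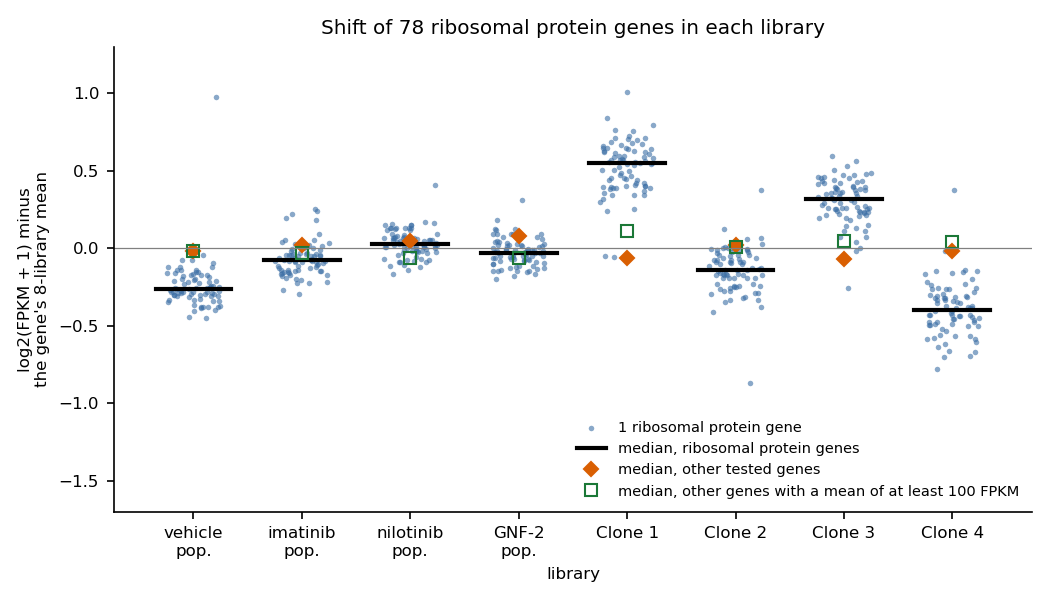
Each point is 1 of 78 ribosomal protein genes; the y axis is log2(FPKM + 1) minus the gene's mean over the 8 libraries, the bars are their medians, diamonds the medians of the other tested genes and squares those of other genes with a mean of at least 100 FPKM. The bar is highest in Clone 1 (0.55) and lowest in Clone 4 (-0.40), while the medians of the other genes lie within -0.07 and 0.11.

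Ribosomal protein messages are short and abundant. Their median transcript length was 757 bases against 2472 over all tested genes. The 672 other genes with a mean of at least 100 FPKM had medians of -0.06 to 0.11, the highest in Clone 1. Those with transcripts under 1000 bases had medians of 0.14 in Clone 1, 0.05 in Clone 3 and 0.03 in Clone 4. Abundant short genes were thus also higher in Clone 1, by less than the ribosomal protein genes, and were not lower in Clone 4. They were not matched in level: their bound was 100 FPKM, and the median ribosomal protein gene was at 1168 FPKM or more in every library. When the trend of each library with length and GC content was removed, 48 genes were highest in Clone 1 and 48 lowest in Clone 4. Quantile normalization and cyclic loess gave 37 and 36 highest in Clone 1 and 40 and 38 lowest in Clone 4. Under these settings the median differences of Clones 1 and 3 from vehicle were also smaller, with values given in the last section. The part of level and length in the shift was not tested.

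Against the vehicle population, most ribosomal protein genes were higher in 6 of the 7 other libraries. The median difference in log2(FPKM + 1) was 0.20 in the imatinib, 0.28 in the nilotinib and 0.24 in the GNF-2 population. It was 0.82 in Clone 1, a 1.76-fold level, 0.13 in Clone 2, 0.56 in Clone 3 and -0.12 in Clone 4. Of 78 genes, 72, 76 and 75 were above vehicle in the 3 resistant populations, where 57.3%, 58.2% and 60.7% of all genes were. In Clones 1, 2, 3 and 4 the counts were 76, 55, 77 and 21, beside 46.9%, 52%, 46.8% and 50.1% of all genes. All of these differences share the same vehicle library. None of the 78 was 1.5-fold higher in a resistant population than in vehicle, a size that 2.71% of all genes reached in the imatinib, 6.65% in the nilotinib and 11.7% in the GNF-2 population.

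By resistance group the same difference appeared in both arms but passed no test. In the catalytic group 77 of 78 genes had a higher mean than vehicle, where 53% of all genes did, with a median difference of 0.36 (other genes 0.02). All 3 catalytic libraries lay above vehicle for 71 genes, as they did for 28.8% of all genes. In the GNF-2 group 77 of 78 were higher (52.9% of all genes), with a median of 0.38, and 54 had all 3 libraries above vehicle (33.8% of all genes). With limma and Benjamini-Hochberg adjustment over all 11843 genes, 0 of the 78 were called in either comparison at an adjusted p below 0.05. The background was as low, 0.0338% of genes in the catalytic and 0.0929% in the GNF-2 comparison. At an unadjusted p below 0.05, 0 of the 78 passed in the catalytic comparison (2.69% of all genes) and 1, RPL39L, in the GNF-2 comparison (11.1%). The standard error of a gene had a median of 0.33, about as large as the differences, and the single vehicle library is assumed to vary like the rest. Without Clone 3 the catalytic median was 0.24, and without Clone 1 the GNF-2 median was 0.18.

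The genes with the largest positive differences in the catalytic group were RPL27 (0.53, SE 0.43), RPL38 (0.50, SE 0.30) and RPS18 (0.49, SE 0.39), each with an adjusted p of 1 by limma. For RPL27, a large-subunit protein, the level was 1319 FPKM in vehicle, 1544, 1706 and 1715 in the imatinib, nilotinib and GNF-2 populations, and 2817, 1616, 2600 and 1568 in Clones 1 to 4. Vehicle was thus its lowest library, below all 7 others. In the GNF-2 group RPS3A (0.67, SE 0.52), RPL22 (0.60, SE 0.30) and RPL27 (0.59, SE 0.43) led, with adjusted p of 0.613, 0.496 and 0.600 by limma. RPL22, a large-subunit protein that is dispensable for translation in many cells, was at 165 FPKM in vehicle, 187, 218 and 203 in the resistant populations and 323, 237, 255 and 184 in Clones 1 to 4. It too was lowest in vehicle.

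At the low end of both comparisons stood RPL39L, the only one of the 78 with a mean below vehicle. All 3 libraries of either group were below vehicle for this gene alone, beside 21.2% of all genes in the catalytic and 26.2% in the GNF-2 comparison. It differed by -0.84 (SE 0.48, adjusted p = 1 by limma) in the catalytic and by -1.18 (SE 0.48, adjusted p = 0.446) in the GNF-2 group. The next genes were near 0 or above: RPS27L (0.02, SE 0.24) and RPSA (0.09, SE 0.33) in the catalytic group, RPL28 (0.03, SE 0.26) and RPS28 (0.13, SE 0.26) in the GNF-2 group. RPSA is the small-subunit protein also known as the laminin receptor precursor.

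The comparison between inhibitor classes, catalytic against GNF-2 resistant libraries, gave no called gene among these. Of 78 genes, 28 had the higher mean in the catalytic group (48.2% of all genes), and the median difference was -0.05. None was called by limma, where 0.0338% of all genes were, and 0 passed an unadjusted p of 0.05 (4.87% of all genes). For no gene of the 78 did the catalytic libraries lie all above or all below the GNF-2 libraries, as they did for 4.08% and 6.82% of all genes. The differences ran from -0.24 (RPS3A, SE 0.37) to 0.34 (RPL39L, SE 0.34). RPS26 (-0.23, SE 0.19) and RPL9 (-0.22, SE 0.30) were near the low end and RPLP2 (0.25, SE 0.21) and RPL36 (0.21, SE 0.23) near the high end. Each group contains a high clone, Clone 3 in the catalytic and Clone 1 in the GNF-2 group. Without Clone 1 the median difference was 0.17 and 74 genes were higher in the catalytic group. Without Clone 3 it was -0.15 and 8 were higher. The sign thus follows which clone is counted.

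Clones were also compared with the populations they came from, 1 library against 1, with no test. Against the GNF-2 population, Clone 1 was higher in 77 of 78 genes (38.1% of all genes) with a median difference of 0.59, and 39 were at least 1.5-fold higher, as were 5.44% of all genes. Clone 2 was lower in 61 (56.5% of all genes) with a median of -0.12, and 1 gene, RPL39L, was at least 1.5-fold lower (12.8% of all genes). Clone 4 was lower in 74 (56.6% of all genes) with a median of -0.37, and 13 were at least 1.5-fold lower (14.5% of all genes). The 3 sister clones of 1 population thus lay above it, slightly below it and further below it. Against the imatinib population, Clone 3 was higher in 71 genes (43.5% of all genes) with a median of 0.41, and 10 were at least 1.5-fold higher (9.05% of all genes).

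Clone 4, resistant to all 3 drugs, was below Clone 1 in 78 of 78 genes (45.8% of all genes). The median difference was -0.92, and 75 were at least 1.5-fold and 28 at least 2-fold lower, against 6.51% and 2.36% of all genes. Against Clone 2 it was lower in 69 (53.1% of all genes), with a median of -0.28 and 3 genes at least 1.5-fold lower (11.1% of all genes). With 1 library of each clone, a difference between clones and one between libraries cannot be told apart.

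No ribosomal protein gene passed the test between the 4 clones and the 3 resistant populations. Of all genes, 7.46% were called by limma in this comparison, and 0 of the 78. With the clones blocked by the population they came from, over the 7 resistant libraries, 11 genes were called in place of 883, and 0 of the 78; the median difference of the 78 was then 0.17. At an unadjusted p below 0.05, 2 of 78 passed, RPL39L and RPS26, beside 27.1% of all genes. The clones' mean was higher for 61 of 78 (42.3% of all genes), with a median difference of 0.10 against -0.08 for the other genes. The median was -0.07 without Clone 1, 0.17 without Clone 2, 0.02 without Clone 3 and 0.27 without Clone 4. Groups did not overlap for 3 genes: RPS26 and RPL15 were higher in every clone than in any resistant population (8.17% of all genes), and RPL39L was lower (18.1% of all genes).

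The genes moved together over the 8 libraries. The median correlation between pairs of the 78 genes was 0.90, and 51.5% of 3003 pairs exceeded 0.9. Among the 672 other abundant genes the median was 0.05, and 0.8% of pairs exceeded 0.9. These are correlations over 8 libraries that share 1 table and 1 scaling, given as a description. Over the 8 libraries a gene's SD of log2 values had a median of 0.31, and 0.32 in the other tested genes. Once the median of each library was taken off, it was 0.11, and 36 genes were below 0.1. RPS13 (0.036), RPL7A (0.048), RPS3 (0.049), RPL23A (0.057), RPS29 (0.065) and RPS18 (0.068) kept closest to the common course, genes that were picked here by this value.

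**Figure D2:**
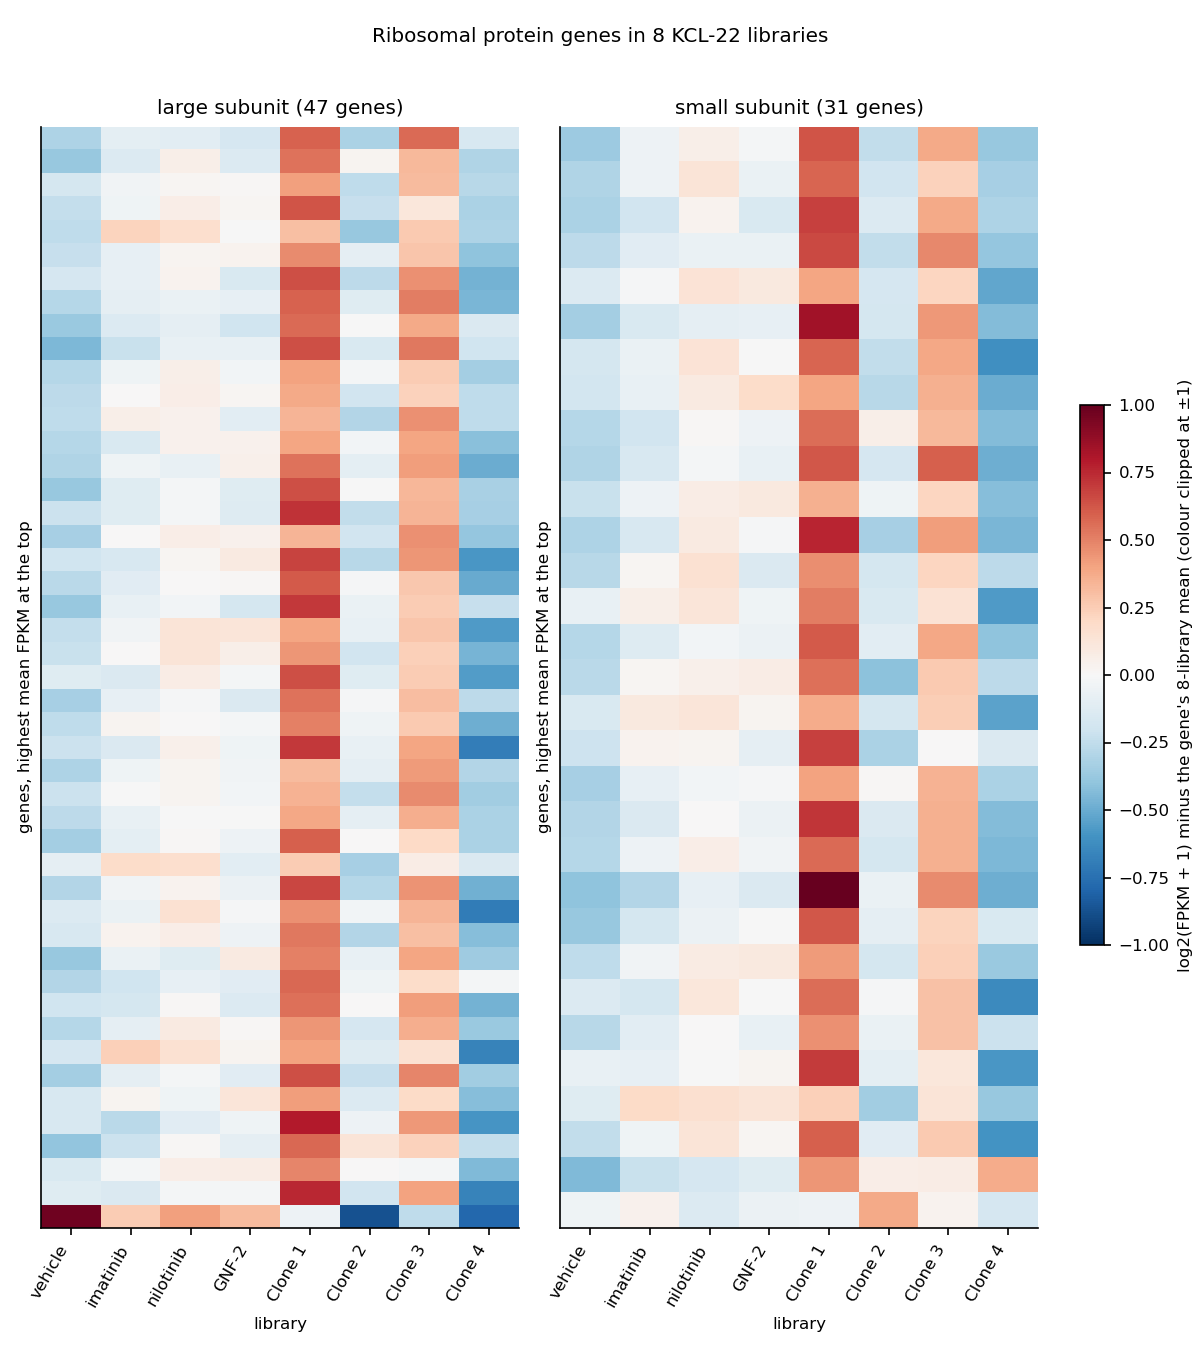
Rows are 78 ribosomal protein genes, split by subunit and ordered by mean FPKM; columns are the 8 libraries; colour is log2(FPKM + 1) minus the gene's 8-library mean, clipped at 1 in either direction. Clone 1 and Clone 3 are red and Clone 4 and vehicle blue for nearly all rows, and RPL39L (bottom row, large subunit) and RPS27L and RPS26 (bottom row and the row above it, small subunit) break the pattern.

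By plain SD over the libraries, the genes that varied most were RPL39L (0.62), RPS3A (0.50), RPL9 (0.43), RPS6 (0.43), RPL36A (0.42) and RPL7 (0.42). All but RPL39L were highest in Clone 1 and lowest in Clone 4. RPS3A, which sits by the exit of the messenger channel and binds initiation factors, was at 947 FPKM in vehicle, 1025, 1183 and 1136 in the resistant populations, and 2526, 1201, 1743 and 895 in Clones 1 to 4. Clone 1 was 2.82-fold above Clone 4. RPS6, the substrate of the S6 kinases, ranged from 1932 FPKM in Clone 4 to 4677 in Clone 1, with vehicle at 2059. RPL7 ranged from 731 FPKM in Clone 4 to 1932 in Clone 1. The genes that varied least were RPS27L (0.17), RPL28 (0.20), RPL19 (0.23), RPS24 (0.25), RPL11 (0.25) and RPS28 (0.25).

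Of the 78, 6 genes departed from the common course by an SD above 0.2 after the library medians were taken off: RPL39L (0.69), RPS27L (0.35), RPS26 (0.34), RPL28 (0.23), RPS3A (0.22) and RPS28 (0.21). These were picked by that value and carry no test of it. RPL39L (chr3:186838740-186857263, GRCh37) was at 29.3 FPKM in vehicle, 17.4, 19.5 and 18.1 in the imatinib, nilotinib and GNF-2 populations, and 13.9, 7.43, 11.9 and 7.96 in Clones 1 to 4. The libraries fell into 3 steps without overlap: vehicle, then the 3 resistant populations, then the 4 clones. Of all genes, 18.1% had every clone below every resistant population, and the share with all 3 steps was not counted. The mean of the clones was 10.3 ± 3.12 FPKM (SD, n = 4) and that of the resistant populations 18.3 ± 1.07 (SD, n = 3). The difference was -0.82 on the log2 scale (SE 0.22, adjusted p = 0.0621 by limma). It came under the threshold when the length and GC trend was removed (adjusted p = 0.0333). It also did when vehicle, the highest library for this gene, was counted among the populations (adjusted p = 0.0266). With the clones blocked by the population they came from, RPL39L was not called. RPL39L encodes a near copy of RPL39, a very small protein at the exit tunnel. RPL39 itself kept to the common course, at 370.3 FPKM in vehicle, 376, 430 and 386 in the resistant populations, and 625, 425, 570 and 306 in Clones 1 to 4, which is highest in Clone 1 and lowest in Clone 4.

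RPS26 (chr12:56435685-56438007, GRCh37) touches the message at the exit channel and is a Diamond-Blackfan anemia gene. It was at 129 FPKM in vehicle, 151, 157 and 162 in the resistant populations, and 240.5, 185, 186 and 229 in Clones 1 to 4. Clone 4, the lowest library for 53 of the 78 genes, was the next to highest for RPS26, which there lay 0.77 above the median shift on the log2 scale. The clones averaged 210 ± 29.1 FPKM (SD, n = 4) and the resistant populations 157 ± 5.60 (SD, n = 3), a difference of 0.41 (SE 0.13, adjusted p = 0.101 by limma). With vehicle, the lowest library for RPS26, counted among the populations the adjusted p was 0.0398. With the clones blocked by the population they came from, RPS26 was not called. RPL15, the other gene with clones above populations, differed by 0.31 (adjusted p = 0.295 by limma). RPS26 has processed pseudogenes, so its level is uncertain where reads were shared with them. The same limit holds for other genes of the 78 that have pseudogenes, among them RPL23A, RPL13A and RPS10.

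RPS27L (chr15:63445538-63449741, GRCh37), a p53 target and the paralog of RPS27, was at 28.5 FPKM in vehicle, 30.2, 26.6 and 28.2 in the resistant populations, and 28.2, 38.4, 30.2 and 26.1 in Clones 1 to 4. It was highest in Clone 2, and Clones 1 and 3 lay close to the populations. RPS27 followed the common course, at 760.2 FPKM in vehicle, 741, 907 and 833 in the resistant populations, and 1231, 830.0, 1026 and 538 in Clones 1 to 4. RPL28 and RPS28, 2 genes of chromosome 19, had a flatter course. RPL28 was at 721 FPKM in vehicle, 872, 864 and 716 in the resistant populations, and 918, 609.9, 809 and 697 in Clones 1 to 4. Its highest and lowest libraries, Clone 1 and Clone 2, were closer together than for any other of the 76 genes with a mean above 100 FPKM. RPS28 was 0.31 below the common shift in Clone 1 and 0.27 above it in the imatinib population. In the comparison of clones with resistant populations RPS28 (-0.25, SE 0.19) and RPL37 (-0.20, SE 0.24) followed RPL39L at the low end, and RPS3A (0.41, SE 0.34) and RPL35A (0.34, SE 0.20) followed RPS26 at the high end, with adjusted p of 0.328 to 0.642 by limma.

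**Figure D3:**
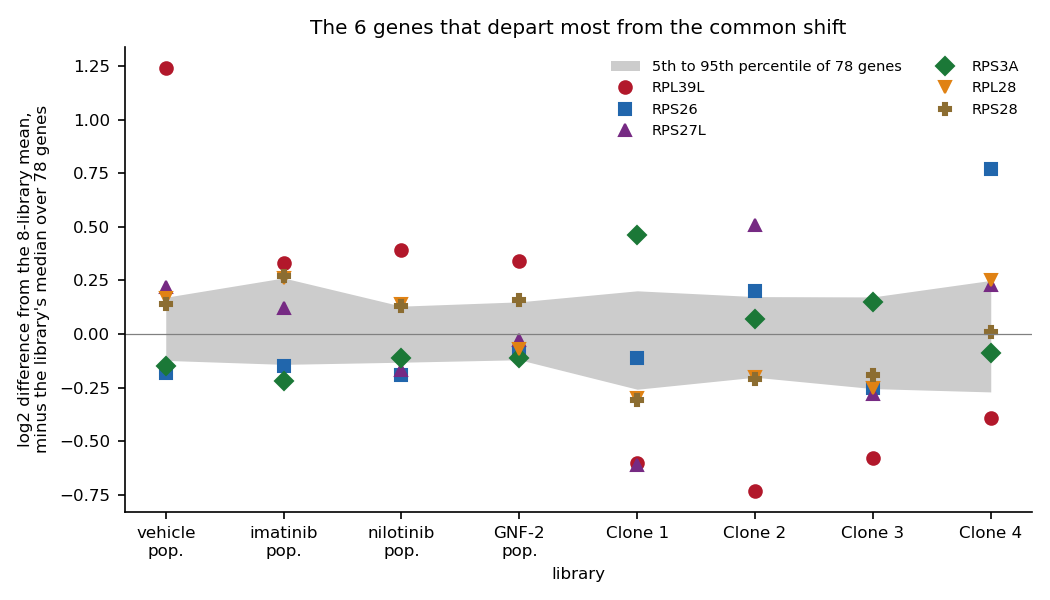
The y axis is each gene's log2 difference from its 8-library mean minus the median of that difference over 78 genes in the library; the grey band spans the 5th to 95th percentile of the 78. RPL39L stands at 1.24 in vehicle, 0.33 to 0.39 in the resistant populations and -0.39 to -0.73 in the clones, and RPS26 stands at 0.77 in Clone 4.

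**Figure D4:**
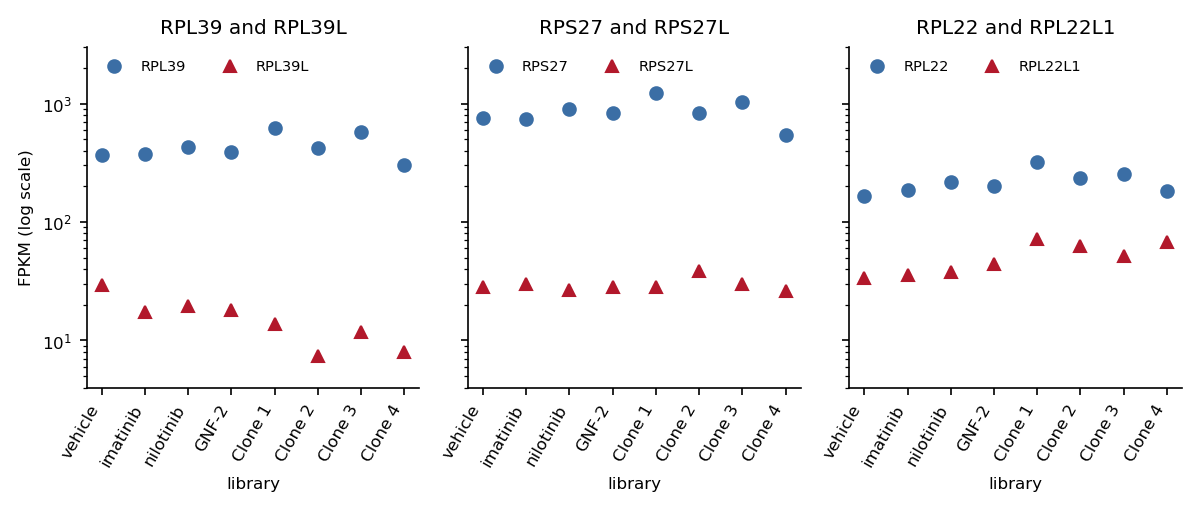
FPKM on a log axis of RPL39, RPS27 and RPL22 (circles) and of their paralogs RPL39L, RPS27L and RPL22L1 (triangles) in the 8 libraries. RPL39L is highest in vehicle and below 14 FPKM in every clone, RPS27L is flat apart from Clone 2, and RPL22L1 is at 51.9 FPKM or more in every clone and 44.6 FPKM or less in every population.

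The next Diamond-Blackfan anemia genes, RPS19, RPL5, RPL11, RPL35A, RPS24, RPS7 and RPS10, were each highest in Clone 1. RPS19, the gene most often mutated in that disease, was at 1689 FPKM in vehicle, 2075, 2269 and 1849 in the resistant populations, and 2819, 1810, 2375 and 1703 in Clones 1 to 4. RPL5 and RPL11 carry the 5S ribosomal RNA and, when free, bind MDM2. RPL5 was lowest in Clone 4 (1129 FPKM) and highest in Clone 1 (2446 FPKM), and RPL11 likewise (1422 and 2381 FPKM). RPL35A, RPS24, RPS7 and RPS10 were highest in Clone 1, at 2769, 2725, 1845 and 3387 FPKM. RPS24 and RPS10 were lowest in Clone 4, at 1582 and 1456 FPKM, and RPL35A and RPS7 in vehicle, at 1448 and 923 FPKM. RPS14, the gene lost with the long arm of chromosome 5 in a myelodysplastic syndrome, ranged from 1196 FPKM in Clone 4 to 2656 in Clone 1.

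The acidic stalk of the large subunit recruits elongation factors through RPLP0, RPLP1 and RPLP2. RPLP0 ranged from 1082 FPKM in Clone 4 to 2591 in Clone 1 and RPLP1 from 2521 in Clone 4 to 4864 in Clone 1. RPLP2 had a narrower range, from 1803 FPKM in Clone 2 to 2894 in Clone 1, and its imatinib population (2746 FPKM) lay close to Clones 1 and 3. RPL3, at the peptidyl transferase centre, and RPL10, which joins the large subunit last, were lowest in Clone 4, at 995 and 427 FPKM, and highest in Clone 1, at 2298 and 954 FPKM.

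What these genes share beyond their name is visible at their starts. RefSeq promoters on GRCh38.p14, 250 bases before to 50 bases after the start, were found for 64 of the 81 genes, some with more than 1 start. A C followed by at least 4 bases that are each C or T, beginning within 10 bases of the start on the gene's strand, was present in 56 of the 64 (87.5%) and in 37.4% of 27305 genes, a gene being counted once where any of its starts had the run. Within 2 bases of the start the shares were 78.1% and 13%. The longest run per gene had a median of 11 bases. The letters CCGGAA, on either strand, were in 57.8% of the 64 and 20.1% of all genes. TTCCGG is the same site read from the other strand. TATAAA was in 9.38% (14% of all genes) and CACGTG in 6.25% (8.77%). The windows below run from 10 bases before to 20 bases after the start, 5′ to 3′ on the gene's strand, with the pyrimidine run in capitals. They show the most abundant gene (RPS18), a pair of genes that kept closest to the common course (RPL7A and RPS13), 2 genes shown beside a departing paralog (RPL39 and RPS27), and 5 genes that departed from it (RPS27L, RPS26, RPS3A, RPL28 and RPS28).
RPS18, chr6:33272065-33272094, plus strand: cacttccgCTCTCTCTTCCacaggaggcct
RPL7A, chr9:133348208-133348237, plus strand: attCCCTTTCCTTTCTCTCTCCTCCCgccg
RPS13, chr11:17077648-17077677, minus strand: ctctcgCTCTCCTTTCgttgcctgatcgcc
RPL39, chrX:119791611-119791640, minus strand: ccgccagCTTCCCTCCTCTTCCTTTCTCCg
RPS27, chr1:153990752-153990781, plus strand: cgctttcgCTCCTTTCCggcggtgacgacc
RPS27L, chr15:63157458-63157487, minus strand: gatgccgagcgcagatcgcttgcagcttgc
RPS26, chr12:56041908-56041937, plus strand: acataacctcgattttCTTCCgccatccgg
RPS3A, chr4:151099618-151099647, plus strand: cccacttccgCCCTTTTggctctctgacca
RPL28, chr19:55385922-55385951, plus strand: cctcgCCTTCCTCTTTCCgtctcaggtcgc
RPS28, chr19:8321486-8321515, plus strand: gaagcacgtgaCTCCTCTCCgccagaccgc

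The RPS27L window holds no such run, and that of RPS26 holds one of 5 bases that begins after the start. Short or late runs were also found in genes nearer to the common course. RPL3 (SD 0.099 after the library medians were taken off) has a run of 5 bases. The run of RPL4 (SD 0.077) begins at base 6. RPS3A, RPL28 and RPS28, which also departed, have runs of 7, 13 and 9 bases, within the range of the others, and that of RPS28 also begins after the start. The 56 genes with a run had a median difference of 0.76 between Clone 1 and vehicle. The 7 tested genes without one, RPL15, RPL17, RPL27, RPL6, RPS27L, RPS29 and RPS4X, had a median of 0.86. The 15 tested genes with no matched promoter had a median of 0.88. Windows of RPL15 and RPL27 hold runs that begin further than 10 bases after the start and were not counted. The part of the run in the shift was not tested. No promoter of RPL39L was matched.

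The genes lie on 21 chromosomes. With the library's median over the ribosomal protein genes taken off, the medians of chromosomes with at least 3 of the genes lay between -0.24 and 0.24 in every library. Their neighbours, the other tested genes of a chromosome, were set against another baseline, the library's median over all other tested genes. Each on its own baseline, the genes of chromosome 4 (RPL34, RPL9 and RPS3A) were at 0.24 in Clone 1 and their neighbours at -0.02. In Clone 4 the 3 genes of chromosome 5 (RPL37, RPS14 and RPS23) were at -0.21 and the 4 of chromosome X at -0.24, and their neighbours at -0.06 and -0.04. The 12 genes of chromosome 19 were at 0.11 in Clone 4, their neighbours at 0.06. Medians over 3 to 12 genes are given as a description, with no test.

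A similar course was seen in some other genes of the translation machinery, listed from textbook knowledge. Of 15 other TOP messages, mostly elongation and initiation factors, 11 were highest in Clone 1 (9.38% of all genes) and 11 lowest in Clone 4 (19.1%). Their median difference from the 8-library mean was 0.46 and -0.48 in those clones. EEF1G, a subunit of the factor that recharges EEF1A, was at 874 FPKM in vehicle, 971, 993 and 1045 in the resistant populations, and 1516, 959, 1368 and 856 in Clones 1 to 4. Over the 8 libraries the correlation with the median of the 78 genes was 0.83 to 0.98 for 12 of the 15, and lower for EIF4B (0.21), HNRNPA1 (0.47) and TPT1 (0.68). EIF4B was lowest in Clone 3 (169 FPKM) and HNRNPA1 highest in Clone 2 (809.7 FPKM). TPT1, the most abundant of the 15, was lowest in Clone 2 (3745 FPKM) and highest in Clone 3 (8271 FPKM), and its level in Clone 4 (6285 FPKM) was above that in vehicle (4332 FPKM). GAS5, a noncoding snoRNA host whose transcript begins with a TOP element, ranged from 456 FPKM in Clone 4 to 1512 in Clone 1, with 465 in vehicle. It was 1 of 7 such hosts measured, of which 5 were highest in Clone 1 (9.38% of all genes) and 5 lowest in Clone 4 (19.1%). The correlation with the median of the 78 genes was 0.98 for GAS5 and from 0.44 (SNHG12) to 0.82 (SNHG5) for the other hosts. The hosts' median was 0.45 in the imatinib and -0.26 in the GNF-2 population and 0.11 in Clone 3. That of the 78 genes was -0.07, -0.03 and 0.32 there. FAU, which encodes a ribosomal protein fused to a ubiquitin-like protein, and GNB2L1 (RACK1) had correlations of 0.92 and 0.91 with the median of the 78 genes. Of the 7 ribosomal proteins outside the naming rule, the 4 paralogs RPL22L1, RPL26L1, RPL36AL and RPL7L1 had correlations of only 0.26 to 0.32. The 76 mitochondrial ribosomal protein genes, which serve another ribosome, had medians from -0.14 in vehicle to 0.13 in Clone 1. Of the 76, 27 were highest in Clone 1 (9.38% of all genes), 26 lowest in vehicle (20.8%) and 12 lowest in Clone 4 (19.1%).

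**Figure D5:**
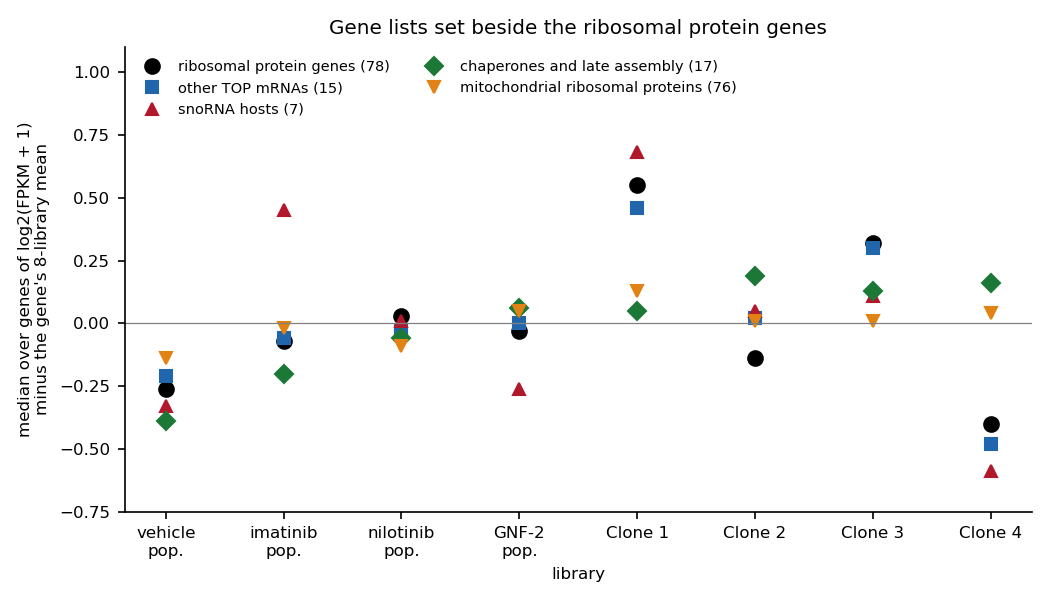
The y axis is the median over a list's genes of log2(FPKM + 1) minus the gene's 8-library mean, for each of the 8 libraries. The other TOP messages lie beside the ribosomal protein genes in Clone 1 (0.46 and 0.55), Clone 3 (0.30 and 0.32) and Clone 4 (-0.48 and -0.40), while assembly factors (0.05, 0.13 and 0.16) and mitochondrial ribosomal proteins (0.13, 0.01 and 0.04) lie nearer to 0 there. The snoRNA hosts lie at 0.68, 0.11 and -0.59 in these clones and at 0.45 in the imatinib population.

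In the tested comparisons none of the 15 other TOP messages and none of the 7 snoRNA hosts was called by limma, beside the background shares given above. Of 17 chaperones and late assembly factors 10 were lowest in vehicle (20.8% of all genes). Only 1 was called between clones and resistant populations, where 7.46% of all genes were called, and it rose in the clones. This was GRWD1, the chaperone of RPL3, at 16.3 ± 1.01 FPKM (SD, n = 4) in clones and 9.72 ± 1.95 (SD, n = 3) in resistant populations (0.70, SE 0.15, adjusted p = 0.0380 by limma). Leaving out any 1 library ended this call, with adjusted p of 0.0544 to 0.118. RPL22L1, the paralog of RPL22 that lies outside the naming rule, also rose in the clones, at 63.5 ± 8.72 FPKM (n = 4) against 39.4 ± 4.68 (n = 3), with a difference of 0.67 (SE 0.15, adjusted p = 0.0376 by limma). Its adjusted p was 0.0304 to 0.145 with 1 library left out, and above the threshold without any library other than Clone 3. RPL22 itself was not called. Of 10 measured regulators of TOP messages, TIAL1, an RNA-binding protein that holds these messages out of translation under stress, fell by 0.90 in the clones (SE 0.11, adjusted p = 0.0066 by limma) and was called with any 1 library left out. The other 9, MTOR, RPTOR and both S6 kinases among them, were not called, and LARP1 was not analysed here. MTOR was at 6.09 FPKM in vehicle and at 6.77, 7.06 and 9.44 in the imatinib, nilotinib and GNF-2 populations. In Clones 1 to 4 MTOR was at 9.53, 14.04, 7.79 and 14.9 FPKM. Its correlation with the median of the ribosomal protein genes was -0.23, and its part in their level was not tested. PTPRC, among the 6 tested myeloid markers, fell by 1.27 in the clones (SE 0.25, adjusted p = 0.0307 by limma), with adjusted p of 0.0174 to 0.126 when 1 library was left out, and its part in these results was not tested. MDM2 was highest in vehicle, at 21.8 FPKM, and CDKN1A ranged from 6.30 FPKM in Clone 2 to 55.6 in vehicle. Neither was called in any comparison. None of the 4 calls made here between clones and resistant populations held with the block by population of origin, where the adjusted p by limma was 0.176 for GRWD1, 0.178 for RPL22L1, 0.0813 for TIAL1 and 0.211 for PTPRC. With resistance group as a covariate the values were 0.135, 0.101, 0.0327 and 0.087, so that TIAL1 alone was called.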

How the data were processed

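RNA of 8 KCL-22 libraries was sequenced, and the deposited table holds 1 FPKM value, computed by the authors, per gene and library. Per the submitters' processing notes, TopHat 1.3, Cufflinks 1.3 and GRCh37 were used. The header names no unit; it was taken from the tool and the values. Of the rows, 70 had a missing value and were left out.

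The tests ran on log2(FPKM + 1) with limma 3.58.1 in R 4.3.3, with a variance trend, for 11843 genes whose mean reached 1 FPKM. One model fitted a mean per resistance group over all 8 libraries and another a mean per kind (vehicle, resistant populations, clones). Tests were two-sided, with Benjamini-Hochberg adjustment over all genes and a threshold of 0.05. They were also run on simulated data with independent libraries and the same spread for every gene, a simpler setting than these data. Single libraries were compared without a test, at 1.5-fold with at least 5 FPKM in the higher library. Length and GC content came from GENCODE release 29 for 95.7% of the tested genes and all 78 tested ribosomal protein genes. Start windows came from RefSeq. Protein sequences were not analysed here, and some genes are not reported here by name.

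The members and lists were chosen with earlier results of these data known. Genes named are those highest or lowest in mean, in SD or in a tested difference, those at 0, paralog pairs, disease genes and the stalk. Alternatives changed the pseudocount, filter, scaling, variance model, covariates and the libraries included.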

Additional observations from a re-analysis of the deposited data

How the results depend on the processing

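The labels tie each clone to a population, so clones and resistant populations were also fitted with the population of origin as a replicate block, an alternative chosen after seeing the data, in which Clones 1, 2 and 4 share a block with the GNF-2 population and Clone 3 with the imatinib population. It called 11 genes of all tested in place of 883, and 0 of the 78. For the other 3 comparisons no paired analysis was possible because no origin spans both groups and the labels give them no more than 1 shared replicate number. None of the 78 ribosomal protein genes was called in the catalytic, GNF-2 and class comparisons under any alternative run. In clones against resistant populations, 1 was called (RPL39L) with the length and GC trend removed and 2 (RPL39L and RPS26) with vehicle counted among the populations.

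The median difference of the 78 between catalytic and GNF-2 groups was 0.06, with 60 higher, with clone as a covariate, and ranged from -0.15 to 0.17 (6 to 74 higher) when 1 library was left out. Between clones and resistant populations it was -0.03, with 31 higher, under quantile normalization and under cyclic loess, and -0.07 to 0.27 (31 to 74 higher) when 1 library was left out. Against vehicle the catalytic median was 0.15 under quantile normalization. Genes highest in Clone 1 numbered 37 under quantile normalization and 36 under cyclic loess, settings chosen after seeing the data, and the medians over vehicle there were 0.25 and 0.27 in Clone 1 and 0.19 and 0.20 in Clone 3. At 2-fold in place of 1.5-fold, Clone 4 had 28 genes below Clone 1, 1 below the GNF-2 population and 0 below Clone 2, Clone 1 had 1 above the GNF-2 population, Clone 3 had 0 above the imatinib population, and the imatinib and GNF-2 populations had 0 below vehicle. Summing repeated rows left every share as it was to 1 decimal.

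Genes called of all tested moved widely. In the class comparison (4) there were 2 at a mean of at least 5 FPKM or with the length and GC trend removed, 0 among genes above 0 everywhere and 1 to 10 with 1 library out. In the catalytic comparison (4) there were 59 without a filter, 2 at a mean of at least 5 FPKM or with the trend removed, 0 among genes above 0 everywhere, 1 under median ratios, quantile normalization, cyclic loess and robust variance, and 0 with any 1 library out. In the GNF-2 comparison (11) there were 79 without a filter, 7 at a mean of at least 5 FPKM, 0 among genes above 0 everywhere and 1 to 13 with 1 library out. In clones against populations (883) there were 226 with resistance group as a covariate, 1851 with vehicle among the populations and 128 to 1086 with 1 library out.

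Among single genes, differences near 0 changed sign. RPS27L, catalytic against vehicle, was -0.01 under median ratios, -0.03 with clone as a covariate and -0.01 to 0.08 with 1 library out. RPSA there was -0.05 under cyclic loess. RPL28, GNF-2 against vehicle, was -0.02 under median ratios, -0.12 under quantile normalization, -0.14 under cyclic loess, -0.04 with the trend removed and -0.13 to 0.17 with 1 library out. RPS28 there was -0.02 under cyclic loess. RPL37, clones against populations, was 0.03 with resistance group as a covariate and -0.36 to 0.00 with 1 library out. RPL9 and RPS3A, catalytic against GNF-2, ranged from -0.43 to 0.06 and from -0.46 to 0.14 with 1 library out. The cause of these changes was not tested. With 8 libraries, 1 of them vehicle, and no read counts, the differences from vehicle in these genes are about as large as their standard errors.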
